A study of Mus musculus with 26 samples.

Results

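The mammary gland of the mouse grows during pregnancy and secretes milk after birth, and the comparison described here asks where that passage differed between CBA/CaH (CBA) and QSi5, both inbred strains. For each probe set, the change from pregnancy to lactation in CBA was taken away from the change in QSi5, as (QSi5 at lactation day 9 minus QSi5 at pregnancy day 12) minus (CBA at lactation day 9 minus CBA at pregnancy day 12). This difference of differences is called the interaction below: it is above 0 where QSi5 moved further up, or less far down, than CBA. All 16 arrays of the 4 inbred groups entered, of 26 arrays in the series: 5 of CBA and 5 of QSi5 at pregnancy day 12, and 3 of CBA and 3 of QSi5 at lactation day 9. The other 10 arrays are of an advanced intercross line at lactation day 9. The samples were inguinal mammary glands frozen in liquid nitrogen, total RNA was hybridised to the Affymetrix mouse genome 430 2 array, and the labels name no treatment and no altered allele in any group. Of 45101 probe sets in the table, 45037 were tested and 64 controls were left out.

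Through pregnancy the ducts branch and alveoli form from luminal and basal epithelium inside a fat pad that also holds vessels, fibroblasts and immune cells. At lactation the luminal cells are packed with secretory machinery for casein, whey protein, lactose and lipid, under prolactin acting through STAT5. The gland is thus a mixture whose makeup shifts between the stages, and in whole tissue fewer cells of a type and less RNA per cell cannot be told apart. The tissue label matched its defining genes: in all 16 arrays Csn2, the beta-casein gene, lay near the top of the scale, at 14.82 ± 0.10 in CBA and 14.69 ± 0.33 in QSi5 in pregnancy (SD, n = 5 each), and 14.84 ± 0.02 and 14.80 ± 0.03 in lactation (SD, n = 3 each). Csn1s2b, another casein, was at 5.39 ± 0.90 in CBA and 5.27 ± 0.84 in QSi5 in pregnancy (SD, n = 5 each), and 14.73 ± 0.03 and 14.71 ± 0.05 in lactation (SD, n = 3 each). Values are log2 levels throughout, so that a difference of 1 is a doubling; they compare arrays for one probe set and do not rank genes against each other. The labels do not say that replicates were separate animals, so the p-values measure only the spread between these arrays.

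Few probe sets changed differently in the 2 strains. At a Benjamini-Hochberg adjusted p under 0.05 in limma, 47 of 45037 probe sets were called, 0.104% of those tested, with 24 higher (0.0533%) and 23 lower (0.0511%). Without adjustment, 2422 had a p under 0.05, which is 5.38% of those tested. The called values lay between 0.99 and 6.16 in size, with a median size of 2.05, while the median standard error of an interaction over all probe sets was 0.256 (quartiles 0.208 and 0.343). Of 842 probe sets with an interaction beyond 1 in size, 46 were called. The median interaction was 0.0035 over all probe sets. The count changed when single arrays were left out: it was 84 without QSi5 pregnancy array 4, 25 without QSi5 lactation array 1, 29 without QSi5 pregnancy array 2, 30 without CBA lactation array 2 and 29 without CBA lactation array 3.

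**Figure D1:**
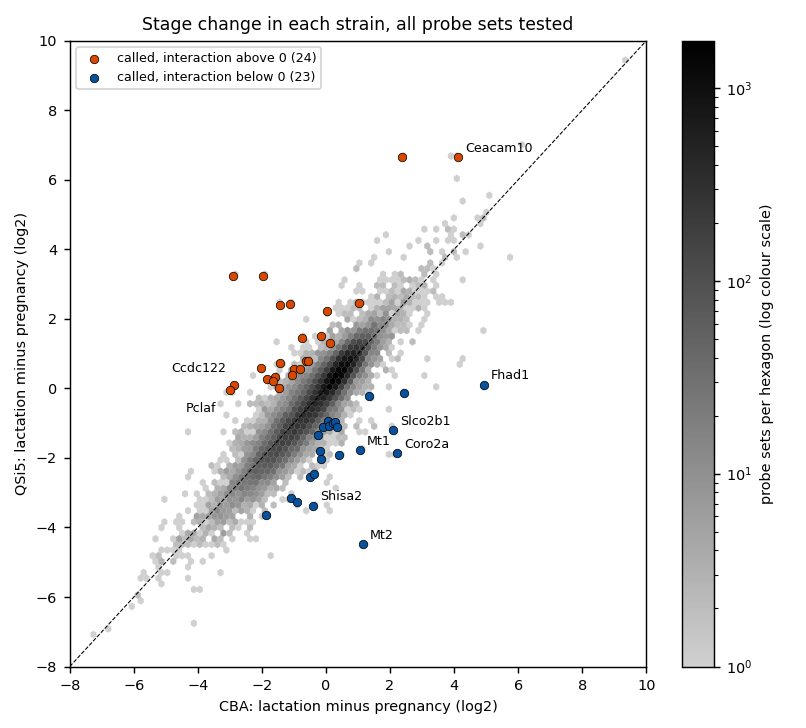
Change from pregnancy day 12 to lactation day 9 in CBA (horizontal axis, log2) against the same change in QSi5 (vertical axis, log2) for 45037 probe sets, with grey hexagons for all and points for the 47 called. Most probe sets lie along the dashed line of equal change, and the called ones lie off it, 24 above and 23 below.

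Within groups, 5 arrays stood apart, meaning that they lay more than 1 above the median of the group's other arrays in skeletal muscle, brown adipocyte or B and plasma cell markers or in a Gapdh control. QSi5 pregnancy arrays 3 and 5 were high in skeletal muscle genes, with list levels 6.14 and 1.65 above the other arrays of the group; CBA pregnancy array 5 was high in brown adipocyte genes by 2.46, and QSi5 lactation array 2 in B and plasma cell genes by 1.43. QSi5 pregnancy array 4 had a Gapdh 3' minus 5' difference 5.002 above that of its group. Other deviations beyond 1 were not part of that rule, and those arrays stayed in: CBA pregnancy array 2 was at -2.42 in white adipocyte, -1.02 in brown adipocyte and -1.02 in fibroblast genes, CBA pregnancy array 4 at 1.31 in fibroblast and 1.15 in macrophage genes and -1.46 in the Gapdh difference, and QSi5 pregnancy arrays 1 and 2 at -1.14 and -1.27 in skeletal muscle genes. CBA lactation array 1 was at 1.01 and QSi5 pregnancy array 4 at -1.14 in luminal genes. With the 5 arrays left out, 38 probe sets were called on 11 arrays, 22 of them among the 47.

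Of the 47 probe sets, 33 had 1 gene symbol and named 32 genes, 4 had several symbols and 10 had none. When 1 probe set stood for each of 18193 genes, the one with the highest mean level, 18 genes were called (0.0989%), 8 higher and 10 lower. The other 15 called probe sets with 1 symbol were not the representative of their gene and are described separately.

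The metallothioneins gave the largest interaction of a named gene. Mt1 and Mt2 encode small cysteine-rich proteins that bind zinc and copper, and their transcription is known to respond to metals, glucocorticoids and inflammation. Mt2 was 9.45, 11.003, 9.18, 10.17 and 9.30 in CBA in pregnancy, 11.13, 10.96, 11.24, 11.23 and 11.62 in QSi5 in pregnancy, 12.31, 9.59 and 11.01 in CBA in lactation, and 6.60, 6.10 and 7.56 in QSi5 in lactation, in replicate order. The 3 QSi5 lactation arrays lay below all 13 others, while in pregnancy 1 CBA array reached the QSi5 range. In QSi5 the gene fell (log2 change -4.48, limma adjusted p = 4.39e-06), and in CBA the change was 1.15 (limma adjusted p = 0.0686). The interaction of Mt2 was -5.63 (SE 0.72, limma adjusted p = 0.00451), and at lactation day 9 QSi5 was 18.6-fold below CBA.

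Mt1, the other gene of the pair, was 11.90, 12.79, 11.68, 12.08 and 11.94 in CBA in pregnancy, 12.71, 12.32, 12.74, 12.86 and 12.98 in QSi5 in pregnancy, 13.95, 12.65 and 12.81 in CBA in lactation, and 11.21, 10.48 and 11.15 in QSi5 in lactation. Its QSi5 lactation arrays were also below all 13 others. Mt1 fell in QSi5 (log2 change -1.77, limma adjusted p = 0.000125) and rose in CBA by 1.06 (limma adjusted p = 0.00707), and its interaction was -2.83 (SE 0.41, limma adjusted p = 0.0109). A second probe set of Mt1 with a mean level of 5.78 gave -0.87 (SE 0.38, limma adjusted p = 0.906). CBA lactation array 1 was the highest of the 16 for both genes; without it the interaction was -4.96 for Mt2 and -2.42 for Mt1, and both were still called (limma adjusted p = 0.00703 and 0.0207). On the 11 arrays left when those that stood apart were dropped, the values were -4.99 and -2.36, and neither was called (limma adjusted p = 0.105 and 0.209).

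Mt1 and Mt2 lie next to each other with no protein-coding gene between them in RefSeq, and their upstream sequences are shown because both genes changed in the same direction. The 250 bases before each annotated start are given 5′ to 3′ from RefSeq (GRCm38.p6, plus strand), at chr8:94172368-94172617 for Mt2 and chr8:94178839-94179088 for Mt1. Capitals mark matches, on either strand, to the core of the metal response element, searched as TGCACNC and TGCGCNC.
Mt2: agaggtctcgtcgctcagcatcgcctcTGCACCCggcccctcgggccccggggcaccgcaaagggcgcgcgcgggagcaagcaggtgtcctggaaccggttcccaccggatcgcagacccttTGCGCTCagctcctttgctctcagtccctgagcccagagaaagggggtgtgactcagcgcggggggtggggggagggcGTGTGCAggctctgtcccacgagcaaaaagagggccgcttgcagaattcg
Mt1: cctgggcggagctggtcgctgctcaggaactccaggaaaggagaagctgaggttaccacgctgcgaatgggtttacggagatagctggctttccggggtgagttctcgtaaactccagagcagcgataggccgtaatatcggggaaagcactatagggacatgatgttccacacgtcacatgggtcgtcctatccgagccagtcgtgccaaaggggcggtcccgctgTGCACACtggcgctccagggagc
The Mt2 stretch held 3 matches and the Mt1 stretch 1, and no match overlapped another. Bases outside these windows, including those past the annotated starts, were not searched, so the counts do not compare the whole promoters. Of 32851 RefSeq promoters of that length, 21.4% held at least 1 match and 1.26% at least 3. The matches are letters in a window and carry no measurement of binding.

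Fhad1 and Cyp2f2 had their strain difference in lactation, while for Hspa1b the strain difference passed the test at neither stage. Fhad1, which encodes a protein with a forkhead-associated domain, was 5.38, 6.47, 4.93, 4.81 and 4.74 in CBA in pregnancy, 4.25, 4.13, 3.82, 5.53 and 4.91 in QSi5 in pregnancy, 9.50, 10.13 and 10.95 in CBA in lactation, and 5.07, 4.05 and 4.77 in QSi5 in lactation. The CBA lactation arrays stood above all 13 others, which did not exceed 6.47. The gene rose in CBA by 4.93 (limma adjusted p = 7.12e-07), its change in QSi5 was 0.10 (limma adjusted p = 0.853), and the interaction was -4.82 (SE 0.63, limma adjusted p = 0.0052). It was called in all 16 fits that left out 1 array.

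Cyp2f2, a cytochrome P450 best known from the airway, was 7.90, 7.95, 7.65, 8.41 and 7.71 in CBA in pregnancy, 7.68, 7.73, 7.60, 7.66 and 7.68 in QSi5 in pregnancy, 7.40, 7.70 and 7.17 in CBA in lactation, and 5.77, 4.67 and 4.93 in QSi5 in lactation. Here the QSi5 lactation arrays were below all 13 others. The gene fell in QSi5 (log2 change -2.54, limma adjusted p = 2.71e-07), its change in CBA was -0.50 (limma adjusted p = 0.0618), and the interaction was -2.04 (SE 0.31, limma adjusted p = 0.0114). The call was lost without CBA lactation array 2 (limma adjusted p = 0.0538), without QSi5 lactation array 3 (0.0532), and on the 11 arrays that did not stand apart (0.159).

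Hspa1b encodes an inducible Hsp70 chaperone and has a near-identical copy, Hspa1a, whose RNA its probes may share. It was 8.59, 8.87, 8.31, 9.04 and 8.22 in CBA in pregnancy, 9.66, 9.45, 9.06, 9.21 and 10.09 in QSi5 in pregnancy, 7.42, 7.28 and 7.80 in CBA in lactation, and 6.33, 6.03 and 6.66 in QSi5 in lactation. QSi5 was above CBA in pregnancy, by a margin of 9.06 against 9.04 between the nearest arrays, and below it in lactation without overlap; the differences were 0.89 (limma adjusted p = 0.0557) and -1.16 (limma adjusted p = 0.134). Both strains fell, QSi5 (log2 change -3.15, limma adjusted p = 9.05e-08) and CBA (log2 change -1.11, limma adjusted p = 0.00148), and the interaction was -2.05 (SE 0.34, limma adjusted p = 0.0265). The other 2 probe sets of the gene gave -1.65 and -1.29, neither called. Its call held in 7 of 16 fits with 1 array left out, with a limma adjusted p of up to 0.121 among those fits, and was lost on the 11 arrays that did not stand apart (0.0757).

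Coro2a, a coronin that binds actin, differed mainly in pregnancy. It was 5.50, 5.32, 4.95, 5.04 and 5.06 in CBA in pregnancy, 8.83, 9.67, 8.84, 7.28 and 9.47 in QSi5 in pregnancy, 7.47, 7.39 and 7.29 in CBA in lactation, and 6.89, 6.55 and 7.42 in QSi5 in lactation. The CBA pregnancy arrays lay below all 11 others, and the strains overlapped in lactation. Coro2a rose in CBA by 2.21 (limma adjusted p = 0.000273) and fell in QSi5 (log2 change -1.87, limma adjusted p = 0.000774), and the interaction of -4.07 (SE 0.54, limma adjusted p = 0.00584) was called under every alternative run.

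The remaining called genes with a lower interaction were 4. Rars, the arginyl-tRNA synthetase of the cytosol, had -1.61 (SE 0.26, limma adjusted p = 0.0221), and Cct3, a subunit of the TRiC chaperonin, had -1.07 (SE 0.19, limma adjusted p = 0.036); both fell in QSi5, with stage changes of -1.79 (limma adjusted p = 1.74e-06) and -1.33 (limma adjusted p = 1.19e-06), and the CBA changes of -0.18 and -0.26 were not called. AI506816, a transcript with no role stated here, had -1.86 (SE 0.28, limma adjusted p = 0.0116), and Ccl27a, a chemokine, had -1.26 (SE 0.21, limma adjusted p = 0.0291). In both of these the strain difference was in pregnancy, where QSi5 was above CBA by 2.61 (limma adjusted p = 2.17e-07) and 1.53 (limma adjusted p = 4.38e-06). Cct3 was called in 3 of 16 fits with 1 array left out, Ccl27a in 6, Rars in 9 and AI506816 in 13. The other 6 probe sets of Cct3 lay between -0.71 and 0.64, none called. On the 11 arrays that did not stand apart, Cct3, Ccl27a and Rars were not called.

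Among genes with a higher interaction, Ccdc122, which encodes a coiled-coil protein, had the largest value. It was 7.90, 8.15, 7.52, 7.84 and 7.45 in CBA in pregnancy, 4.06, 3.72, 3.85, 4.45 and 4.46 in QSi5 in pregnancy, 4.79, 5.17 and 4.71 in CBA in lactation, and 4.41, 4.20 and 3.997 in QSi5 in lactation. The CBA pregnancy arrays were above all 11 others, which did not exceed 5.17. Ccdc122 fell in CBA (log2 change -2.88, limma adjusted p = 6.07e-08), its change in QSi5 was 0.10 (limma adjusted p = 0.699), and the interaction was 2.98 (SE 0.29, limma adjusted p = 0.000452), called under every alternative run.

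Pdxdc1, a protein with a pyridoxal-dependent decarboxylase domain, was 9.91, 9.91, 9.64, 9.51 and 9.42 in CBA in pregnancy, 4.87, 5.13, 5.24, 4.30 and 5.46 in QSi5 in pregnancy, 9.15, 9.11 and 8.57 in CBA in lactation, and 6.64, 6.001 and 6.73 in QSi5 in lactation. On this probe set QSi5 lay below CBA at both stages without overlap. The gap narrowed from -4.68 (limma adjusted p = 2.51e-09) in pregnancy to -2.48 (limma adjusted p = 0.000202) in lactation, with a level that rose in QSi5 by 1.46 (limma adjusted p = 0.000138) and fell in CBA (log2 change -0.74, limma adjusted p = 0.0191). The interaction was 2.20 (SE 0.34, limma adjusted p = 0.0167); the other 3 probe sets of the gene lay between -0.50 and 0.12. Those 3 had the strain difference in the opposite direction, with QSi5 above CBA by 2.4, 0.54 and 0.53 in pregnancy and by 2.19, 0.036 and 0.65 in lactation. The call was lost without CBA lactation array 3 (limma adjusted p = 0.0753), QSi5 lactation array 1 (0.0767) or QSi5 lactation array 3 (0.0729), and with quantile normalization (0.147).

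Cspg5, a chondroitin sulfate proteoglycan known from brain, was 8.56, 8.43, 8.29, 8.64 and 7.34 in CBA in pregnancy, 6.24, 6.53, 6.16, 6.22 and 6.30 in QSi5 in pregnancy, 6.33, 6.42 and 6.44 in CBA in lactation, and 6.77, 6.55 and 6.39 in QSi5 in lactation. The CBA pregnancy arrays were above all 11 others, array 5 least so at 7.34. Cspg5 fell in CBA (log2 change -1.86, limma adjusted p = 1.16e-05), its QSi5 change was 0.28 (limma adjusted p = 0.295), and the interaction was 2.14 (SE 0.32, limma adjusted p = 0.0114). Leaving out QSi5 lactation array 1 gave an adjusted p of 0.0568.

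Capn9, a calpain protease known from the digestive tract, was 5.996, 6.05, 5.92, 6.11 and 5.64 in CBA in pregnancy, 4.08, 3.99, 4.11, 4.11 and 3.98 in QSi5 in pregnancy, 5.33, 5.05 and 4.40 in CBA in lactation, and 4.56, 4.65 and 4.65 in QSi5 in lactation. In pregnancy the CBA arrays were the highest of the 16 and the QSi5 arrays the lowest, and in lactation the strains overlapped. It fell in CBA (log2 change -1.01, limma adjusted p = 0.000175) and rose in QSi5 by 0.57 (limma adjusted p = 0.00904), with an interaction of 1.58 (SE 0.24, limma adjusted p = 0.0114). On the 11 arrays that did not stand apart the value was 1.66 (limma adjusted p = 0.105).

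Cyp7b1, the oxysterol 7-alpha-hydroxylase of bile acid and neurosteroid metabolism, differed in lactation. It was 5.42, 5.12, 5.33, 5.26 and 5.56 in CBA in pregnancy, 4.87, 4.78, 4.71, 5.57 and 4.55 in QSi5 in pregnancy, 5.21, 5.25 and 5.09 in CBA in lactation, and 6.41, 6.08 and 6.68 in QSi5 in lactation. The QSi5 lactation arrays were above all 13 others. Cyp7b1 rose in QSi5 by 1.49 (limma adjusted p = 1.7e-05), its change in CBA was -0.16 (limma adjusted p = 0.514), and the interaction was 1.65 (SE 0.28, limma adjusted p = 0.0287). The call held in 5 of 16 fits with 1 array left out, with adjusted p values up to 0.121 in those fits.

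D130037M23Rik, a transcript with no role stated here, was 6.91, 6.88, 6.67, 6.99 and 7.16 in CBA in pregnancy, 6.90, 7.42, 7.07, 7.18 and 7.11 in QSi5 in pregnancy, 8.31, 7.77 and 7.81 in CBA in lactation, and 9.60, 9.54 and 9.62 in QSi5 in lactation. QSi5 lactation arrays were again the highest. The rise was 2.45 (limma adjusted p = 1.01e-08) in QSi5 and 1.04 (limma adjusted p = 5.28e-05) in CBA, and the interaction was 1.41 (SE 0.21, limma adjusted p = 0.0114). The call was lost without CBA lactation array 2 (limma adjusted p = 0.0529), CBA lactation array 3 (0.0535) or QSi5 lactation array 1 (0.0513), and on the 11 arrays that did not stand apart (0.167).

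Gstp1 and Dnph1 completed the 8 genes. Gstp1, the pi-class glutathione transferase, rose in QSi5 by 0.55 (limma adjusted p = 0.000312) and fell in CBA (log2 change -0.83, limma adjusted p = 1.22e-05). Its interaction of 1.37 (SE 0.14, limma adjusted p = 0.000645) was the most precise of the 18 and was called under every alternative run. Dnph1, a nucleotide hydrolase, rose in QSi5 by 0.79 (limma adjusted p = 0.000185) and fell in CBA (log2 change -0.57, limma adjusted p = 0.00294), so that a gap of -1.43 in pregnancy became -0.07 in lactation, and its interaction was 1.35 (SE 0.19, limma adjusted p = 0.00914). On the 11 arrays that did not stand apart it was 1.32 (limma adjusted p = 0.113).

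Other settings ended several of these calls. With all 26 arrays in the fit, the limma adjusted p was 0.137 for Cyp7b1, 0.181 for D130037M23Rik, 0.313 for Pdxdc1, 0.346 for Fhad1 and 0.397 for Cyp2f2. The intercross had its own mean in that fit, so the interactions stayed the same and only the shared estimate of spread changed. The SD of the intercross arrays was 0.57, 0.55, 1.01, 2.37 and 1.04 for these genes in that order. With the mean of all probe sets of a gene in place of the brightest, the interaction was -1.85 for Mt1 (limma adjusted p = 0.0731), -1.66 for Hspa1b (0.552), 0.40 for Pdxdc1 (0.984), 0.93 for Cyp7b1 (0.2), 0.74 for D130037M23Rik (0.479) and -0.33 for Cct3 (0.907). Cct3 was also lost in 6 of 10 other settings.

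**Figure D2:**
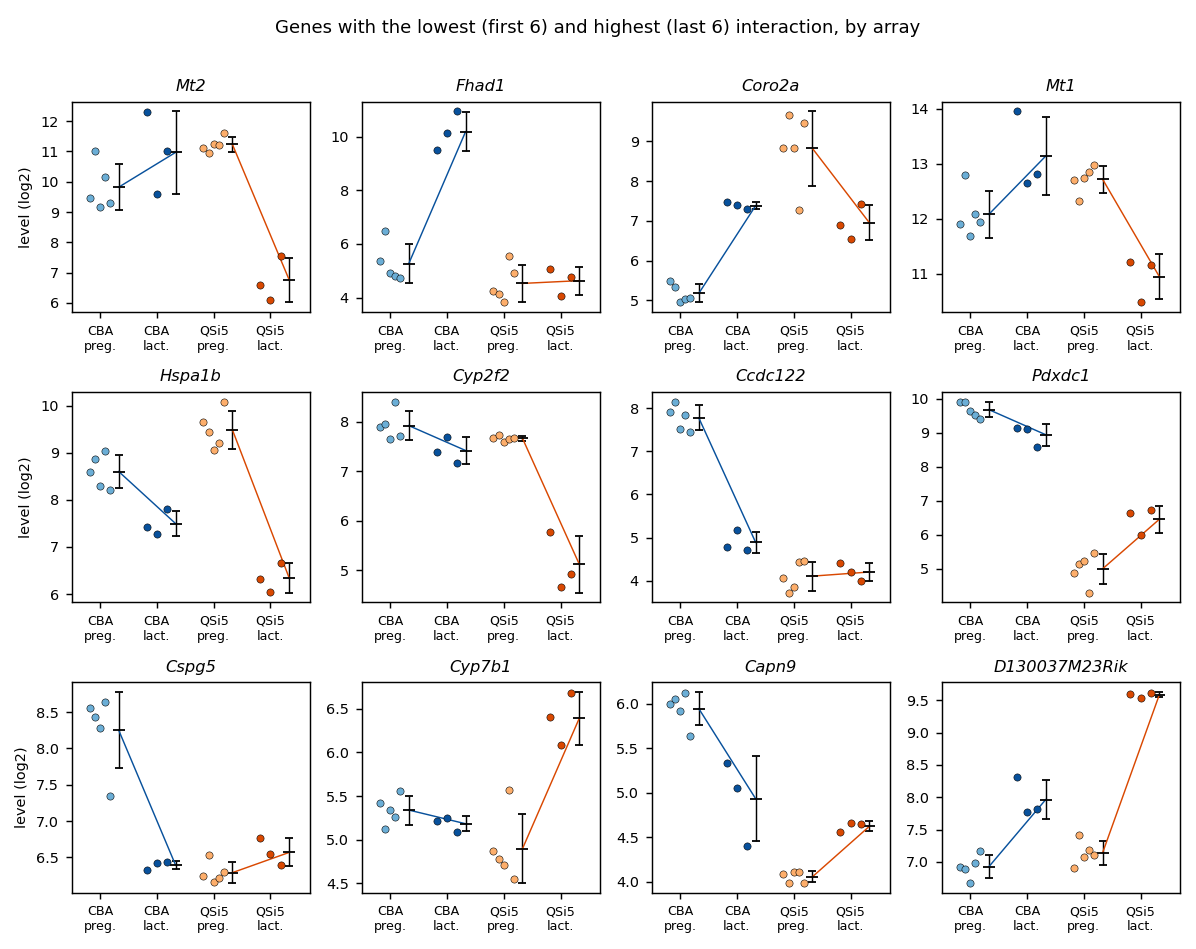
Log2 level on each of the 16 arrays for the 6 genes with the lowest and the 6 with the highest interaction among the 18 called by their representative probe set; points are arrays, dashes and bars are the mean and SD of each group (5 arrays each in pregnancy, 3 each in lactation), and lines join the means of a strain. In Mt2, Mt1 and Cyp2f2 the QSi5 lactation arrays are the lowest, and in Ccdc122 and Cspg5 the CBA pregnancy arrays are the highest.

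Where the strains parted differed among the 47 probe sets. The QSi5 minus CBA difference was wider in pregnancy in 29, 16 of them with a higher and 13 with a lower interaction, with a median size of 2.19 in pregnancy and 0.286 in lactation. It was wider in lactation in 18, 8 higher and 10 lower, with median sizes of 0.456 and 2.24. The probe sets were sorted by the wider difference, so the contrast of medians within each set follows from the sorting. In 26 the sign of the strain difference turned between stages, and in 30 the stage changes of the strains had opposite signs. Both counts are of signs alone and include differences near 0. The matching shares of all tested probe sets were not counted, here or for the 29 and 18. None of these counts can therefore be read as a trait of the called probe sets. In lactation Coro2a was at -0.43 and Cspg5 at 0.17 (limma adjusted p = 0.99987 for each). In 1453238_s_at the differences were -2.29 in pregnancy (limma adjusted p = 0.055) and 3.87 in lactation (limma adjusted p = 0.0217). By another measure, a limma adjusted p under 0.05 over all probe sets, the strains differed in 492 at pregnancy day 12 (1.09%) and in 130 at lactation day 9 (0.289%). These are groups of 5 and of 3 arrays that the interaction shares.

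**Figure D3:**
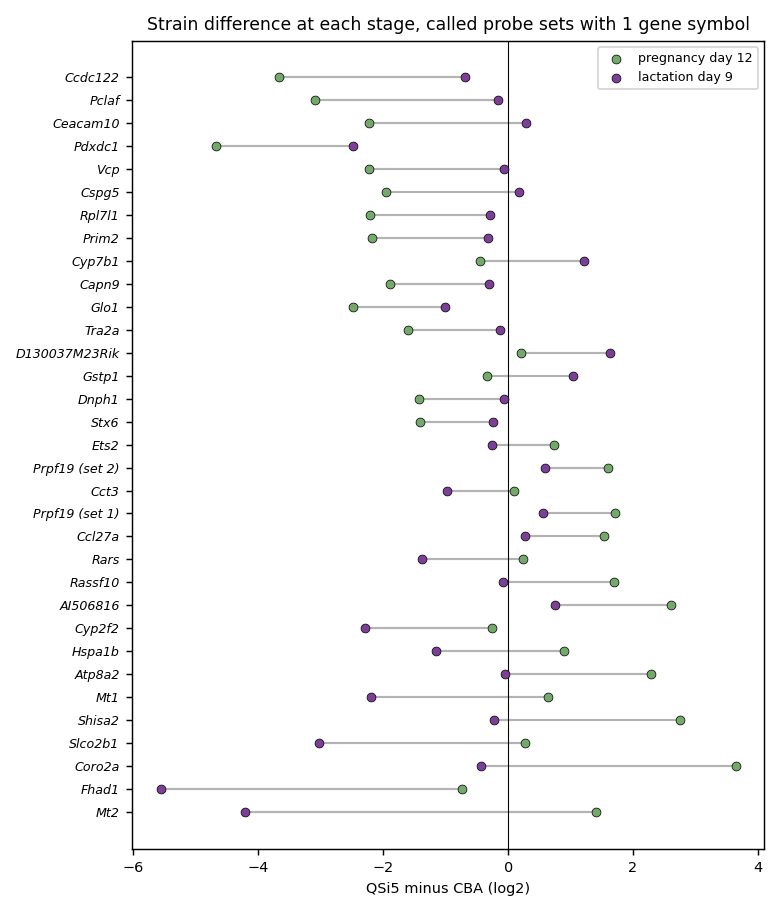
QSi5 minus CBA difference (log2, horizontal axis) at pregnancy day 12 and at lactation day 9 for the 33 called probe sets with 1 gene symbol, ordered by interaction. The difference of Ccdc122 goes from -3.67 to -0.69, that of Coro2a from 3.64 to -0.43 and that of Mt2 from 1.41 to -4.22.

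The 15 called probe sets that did not represent their gene were 8 higher and 7 lower. Shisa2, an endoplasmic reticulum protein that retains FGF and Wnt receptors, and Atp8a2, a phospholipid flippase, are neighbours with no protein-coding gene between them. The Shisa2 probe set was 4.06, 3.17, 3.40, 3.82 and 3.30 in CBA in pregnancy, 6.62, 6.33, 6.40, 5.87 and 6.31 in QSi5 in pregnancy, 2.98, 3.38 and 3.10 in CBA in lactation, and 3.03, 2.88 and 2.88 in QSi5 in lactation. The QSi5 pregnancy arrays were above all 11 others, and its interaction was -2.98 (SE 0.28, limma adjusted p = 0.000452). The brighter Shisa2 probe set gave -2.96 (SE 0.63, limma adjusted p = 0.14). The Atp8a2 probe set gave -2.34 (SE 0.38, limma adjusted p = 0.022), with QSi5 pregnancy arrays at 5.77 to 7.21 against at most 4.95 on the other 11. The other 2 probe sets of Atp8a2 gave -0.06 and 0.21.

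Slco2b1, an organic anion transporter, was 6.33, 6.51, 6.41, 7.46 and 6.40 in CBA in pregnancy, 6.74, 6.71, 6.77, 6.75 and 7.49 in QSi5 in pregnancy, 8.85, 8.47 and 8.83 in CBA in lactation, and 5.63, 5.79 and 5.65 in QSi5 in lactation. In lactation the CBA arrays were the highest of the 16 and the QSi5 arrays the lowest. The interaction of that probe set was -3.29 (SE 0.34, limma adjusted p = 0.000645), while the gene's brightest probe set gave -0.56 (SE 0.23, limma adjusted p = 0.871) and the third gave 0.47.

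Ceacam10, a secreted member of the carcinoembryonic antigen family, had the widest stage change of the called genes with a symbol. It was 7.56, 8.98, 7.98, 8.27 and 7.95 in CBA in pregnancy, 6.34, 5.55, 5.23, 5.75 and 6.75 in QSi5 in pregnancy, 12.26, 12.29 and 12.29 in CBA in lactation, and 12.57, 12.38 and 12.75 in QSi5 in lactation. QSi5 was below CBA in pregnancy without overlap, and in lactation all 6 arrays lay between 12.26 and 12.75. It rose in both strains, by 6.64 (limma adjusted p = 1.42e-09) in QSi5 and 4.14 (limma adjusted p = 1.38e-07) in CBA, and the interaction was 2.51 (SE 0.45, limma adjusted p = 0.0432). The brighter probe set of the gene gave 2.75 (SE 0.55, limma adjusted p = 0.0971). The call held in 4 of 16 fits with 1 array left out, and was lost with equal array medians and on the 11 arrays that did not stand apart; the highest adjusted p was 0.149.

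Pclaf, Prim2 and Rpl7l1 shared a pattern of levels. Pclaf, a PCNA-associated factor, and Prim2, a primase subunit, had 2.93 (SE 0.43, limma adjusted p = 0.0114) and 1.87 (SE 0.20, limma adjusted p = 0.000976), and Rpl7l1, a ribosome biogenesis factor, had 1.93 (SE 0.23, limma adjusted p = 0.00178). In each the CBA pregnancy arrays were above all 11 others. The other probe sets of these genes had smaller or opposite values, which lay between -0.09 and 0.84 for Pclaf, -0.25 and 0.22 for Prim2, and -0.85 and -0.65 for Rpl7l1. The called Pclaf probe set had low QSi5 means, 3.53 in pregnancy and 3.48 in lactation, and a limit from the floor was not tested. The 29 cell cycle genes had a median of 0.049, with none called and 3 higher and 2 lower at a p under 0.05 (17.2%). Mki67, the proliferation marker, was 10.39 ± 0.35 in CBA and 10.38 ± 0.68 in QSi5 in pregnancy (SD, n = 5 each), and 7.59 ± 0.52 and 8.001 ± 0.50 in lactation (SD, n = 3 each), with an interaction of 0.42 (SE 0.50, limma adjusted p = 0.996).

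Of the remaining 8, Prpf19, a splicing factor, had 2 called probe sets at -1.16 and -1.01 among 5. Its brightest probe set gave -0.26 (limma adjusted p = 0.996), and the others gave -0.68 and 0.43, neither called. Rassf10, a RAS-association domain protein, had -1.77, and Ets2, a transcription factor, -0.99. The values were 2.17 for Vcp, a AAA ATPase, 1.47 for Glo1, the glyoxalase, 1.47 for Tra2a, a splicing regulator, and 1.16 for Stx6, a SNARE of the trans-Golgi. In those 4 the other probe sets lay between -0.57 and 0.57. The called Vcp and Tra2a probe sets had low mean levels, 4.22 and 4.14, and a limit from the floor was not tested. The adjusted p ran from 0.00643 for Stx6 to 0.0478 for Vcp. Most of these calls rested on single arrays: Vcp and Ets2 were called in 4 of 16 fits with 1 array left out, Tra2a in 5, Rassf10 in 6, Glo1 and the second Prpf19 probe set in 2, and Stx6 and the first Prpf19 probe set in all 16. On the 11 arrays that did not stand apart none of the 8 was called.

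The largest interaction of all was on a probe set with no symbol in the annotation used. The probe set 1453238_s_at was 9.42, 7.43, 9.63, 9.28 and 11.08 in CBA in pregnancy, 6.83, 7.85, 7.58, 7.55 and 5.59 in QSi5 in pregnancy, 6.43, 7.01 and 5.94 in CBA in lactation, and 9.86, 10.70 and 10.42 in QSi5 in lactation, with an interaction of 6.16 (SE 0.88, limma adjusted p = 0.00914). The strains exchanged places, QSi5 being the lower in pregnancy, with overlap, and the higher in lactation, without. The probe set 1431213_a_at gave 5.22 (SE 0.63, limma adjusted p = 0.00267). Its QSi5 pregnancy arrays lay between 3.89 and 5.95 and the CBA ones between 7.82 and 9.07.

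To place these calls, 34 gene lists covering 535 measured genes were set beside them, and 2 genes on them were called, Mt1 and Mt2 of the metallothionein, glutathione and stress list (2 of 18 lower, list median -0.12). No member of the other 33 lists passed. Over all 18193 genes, 6.12% had an unadjusted p under 0.05, 2.34% with a higher and 3.78% with a lower interaction, and the median was -0.016. The lists are described against those shares, without a test of a list. Genes named from here to the end that are not on the naming rule's list were taken after their values were seen. They were taken for their unadjusted p, except Esr1 and Pgr, which were taken for their sign.

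Milk protein genes gave an interaction median of 0.10 over 14 measured members, with none called and 1 with a p under 0.05 (7.14%). Wap, the whey acidic protein, was 12.08 ± 1.14 in CBA and 12.80 ± 1.07 in QSi5 in pregnancy (SD, n = 5 each), and 15.09 ± 0.01 and 15.09 ± 0.03 in lactation (SD, n = 3 each), and Lalba, the lactose synthase cofactor, was 11.88 ± 0.50 in CBA and 12.58 ± 0.74 in QSi5 in pregnancy (SD, n = 5 each), and 14.41 ± 0.03 and 14.71 ± 0.04 in lactation (SD, n = 3 each). Their interactions were -0.73 (SE 0.83, limma adjusted p = 0.996) and -0.39 (SE 0.48, limma adjusted p = 0.996). That of Csn1s2b was 0.09 (SE 0.65, limma adjusted p = 0.996), with a 95% interval from -1.29 to 1.48, and that of Csn2 was 0.09 (SE 0.21, limma adjusted p = 0.996). Wap, Csn1s2b and Csn2 in lactation lay close to 15.13, the highest value on the 16 arrays, in both strains, so equal stage changes cannot be read from these values. The member with a p under 0.05 was Ltf, lactoferrin, at -1.40 (SE 0.52, unadjusted p = 0.0169, limma adjusted p = 0.82).

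The 12 milk fat globule and droplet proteins had a median of 0.02 and 1 member with a p under 0.05 (8.33%). Muc1, a mucin of the apical membrane, was 8.19, 8.21, 7.63, 7.81 and 7.29 in CBA in pregnancy, 10.04, 9.60, 9.65, 9.37 and 10.10 in QSi5 in pregnancy, 10.78, 10.62 and 10.88 in CBA in lactation, and 11.74, 11.48 and 11.69 in QSi5 in lactation. QSi5 was above CBA at both stages without overlap, and the interaction was -1.05 (SE 0.29, unadjusted p = 0.00272, limma adjusted p = 0.45). Cidea, a droplet protein of milk lipid secretion and of brown fat, had 1.96 (SE 0.97, limma adjusted p = 0.951), and Plin2, the main droplet coat, -0.13 (SE 0.21, limma adjusted p = 0.996).

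Fatty acid and triglyceride synthesis genes had a median of 0.43 over 29 members, none called, with 6 at a p under 0.05, all higher (20.7%). These were Scd1, the stearoyl-CoA desaturase, at 1.34, Elovl5, an elongase, at 1.12, Lpin1, a phosphatidate phosphatase, at 1.48, Acacb at 2.06, Slc25a1 at 1.44 and Dgat1 at 0.75. Their adjusted p ran from 0.741 to 0.917. A second probe set gave -0.11 for Acacb and 0.06 for Dgat1. Lpin1 was 8.62, 8.63, 8.84, 8.53 and 9.30 in CBA in pregnancy, 8.83, 8.90, 8.72, 7.86 and 7.58 in QSi5 in pregnancy, 8.75, 10.32 and 10.39 in CBA in lactation, and 10.99, 10.95 and 10.75 in QSi5 in lactation. CBA lactation array 1 was the lowest of the 6 lactation arrays for Lpin1, and in Fasn, the fatty acid synthase, it was at 11.85 against 12.67 to 12.98 on the other 5. Without that array Lpin1 gave 0.95 and the list median was 0.14, with 2 members higher and 2 lower at a p under 0.05; without the 5 arrays that stood apart it was 0.22.

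The 25 ion, amino acid and metal transporters had a median of -0.03, with 1 higher and 3 lower at a p under 0.05. Slc16a1, the monocarboxylate transporter MCT1, was 10.66, 10.99, 10.33, 10.31 and 10.58 in CBA in pregnancy, 9.60, 9.62, 9.39, 8.22 and 9.73 in QSi5 in pregnancy, 10.28, 9.66 and 9.73 in CBA in lactation, and 6.97, 6.69 and 7.17 in QSi5 in lactation. QSi5 was below CBA at both stages without overlap, and the interaction was -1.69 (SE 0.41, unadjusted p = 0.00079, limma adjusted p = 0.244); it was called without QSi5 pregnancy array 4, at -1.96 (limma adjusted p = 0.00343), while its second probe set gave 0.14 with all arrays. Aqp5, a water channel, had -1.16 (SE 0.28, unadjusted p = 0.0008, limma adjusted p = 0.245), Slc34a2, the phosphate cotransporter of lactating epithelium, 1.03 (SE 0.43, unadjusted p = 0.0308, limma adjusted p = 0.891), and Slc7a8, an amino acid transporter, -0.76 (SE 0.22, unadjusted p = 0.00289, limma adjusted p = 0.464). Atp2b2, the calcium pump of milk secretion, had -0.11 (SE 0.28, limma adjusted p = 0.996), and Kcnn4, a potassium channel, -0.01 (SE 0.42, limma adjusted p = 0.999).

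Prolactin and STAT5 signalling genes had a median of 0.15 over 17 members, which turned to -0.09 without QSi5 pregnancy array 4. Those at a p under 0.05 were the STAT5 targets and feedback inhibitors Socs2 (1.01), Cish (0.67) and Socs3 (-0.80), 2 higher and 1 lower (17.6%). The other 5 probe sets of Socs2 lay between -0.16 and 0.64, and without CBA lactation array 1 Cish gave 0.42. Elf5, the alveolar transcription factor, had 0.17 (SE 0.51, limma adjusted p = 0.996). The 20 endoplasmic reticulum folding genes had a median of -0.40, 18 of them negative, with 3 lower at a p under 0.05 (15.0%): the chaperones Dnajb9 (-1.06) and Hyou1 (-0.56) and the disulfide isomerase Pdia6 (-0.51). Without the 5 arrays that stood apart that median was -0.10. Xbp1, the secretory transcription factor, had 0.10 (SE 0.24, limma adjusted p = 0.996).

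Luminal cell markers had the highest share of members at a p under 0.05, 6 of 16 (37.5%), all lower, with a list median of -0.78 and none called. Krt8, a keratin of luminal cells, was 12.59, 12.67, 12.73, 12.73 and 12.40 in CBA in pregnancy, 12.88, 12.92, 12.75, 13.14 and 12.99 in QSi5 in pregnancy, 11.24, 10.27 and 10.44 in CBA in lactation, and 9.82, 9.77 and 10.08 in QSi5 in lactation. QSi5 was the higher in pregnancy, by a margin of 12.75 against 12.73 between the nearest arrays, and the lower in lactation, with no overlap at either stage. Krt8 gave -1.08 (SE 0.26, unadjusted p = 0.00071, limma adjusted p = 0.233). The others were Prom1 (-1.28), Krt19 (-1.19), Krt7 (-0.96), Cldn7 (-0.78) and Aldh1a3 (-0.72), markers of luminal or ductal cells. Kit, a receptor of luminal progenitors, had -1.36 (SE 0.75, limma adjusted p = 0.982). The list had 13 negative and 3 positive members. The positive ones were Esr1 (0.49), Elf5 (0.17) and Pgr (0.15), none with a p under 0.05. CBA lactation array 1 was 1.01 above the other CBA lactation arrays in the level of this list, and without it the list median was -0.33 with 5 members at a p under 0.05, Krt19 giving -0.78 and Krt7 -0.62. Among basal cells, Krt14 had -0.57 (SE 0.31, limma adjusted p = 0.982), and the 14 myoepithelial and basal markers had a median of -0.44.

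Involution and acute-phase genes were the other list with many lower members, 6 of 22 at a p under 0.05 (27.3%) and a median of -0.82. Saa1, a serum amyloid, was 6.33, 6.76, 6.47, 6.83 and 5.42 in CBA in pregnancy, 4.69, 3.88, 3.92, 4.86 and 6.31 in QSi5 in pregnancy, 13.10, 8.88 and 9.85 in CBA in lactation, and 6.45, 5.16 and 4.97 in QSi5 in lactation. The 3 CBA lactation arrays were above all 13 others and array 1 was far above the other 2. Saa1 gave -3.45 (SE 1.06, unadjusted p = 0.00522, limma adjusted p = 0.604). Orm2, an orosomucoid, was 4.24, 4.47, 4.66, 4.01 and 4.48 in CBA in pregnancy, 4.17, 4.25, 4.20, 4.46 and 3.69 in QSi5 in pregnancy, 10.75, 9.33 and 7.84 in CBA in lactation, and 6.89, 5.32 and 5.53 in QSi5 in lactation, with the CBA lactation arrays again the highest, and gave -3.17 (SE 0.67, unadjusted p = 0.00023, limma adjusted p = 0.135). Saa3 gave -2.67 (SE 0.60, unadjusted p = 0.000462, limma adjusted p = 0.193), Saa2 -3.43 (SE 0.94, unadjusted p = 0.0022, limma adjusted p = 0.409), and Lrg1, a leucine-rich glycoprotein, -3.26 (SE 1.24, unadjusted p = 0.0182, limma adjusted p = 0.837).

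The sixth member was Socs3. At lactation day 9 itself the QSi5 minus CBA difference was -5.08 (limma adjusted p = 0.0108) in Saa1, -3.39 (limma adjusted p = 0.00644) in Orm2 and -3.24 (limma adjusted p = 0.00423) in Saa3. Without CBA lactation array 1 the list median was -0.34, and the interactions were -2.20 for Saa1, -2.45 for Orm2, -1.93 for Saa3, -2.12 for Saa2, -1.85 for Lrg1 and -0.36 for Socs3. That array was also the highest in Mt1 and Mt2, and the part of the acute-phase level in the metallothionein values was not tested. Orm2 was called without CBA lactation array 3 and Saa2 without CBA lactation array 2 (limma adjusted p = 0.0157 and 0.0377). Clu, a gene of involution, had -0.26 (SE 0.22, limma adjusted p = 0.996).

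B and plasma cell markers had a median of 0.97 over 14 members and 5 higher at a p under 0.05 (35.7%), with none called. Jchain, the joining chain of secretory antibody, was 8.54, 7.33, 7.45, 11.55 and 6.88 in CBA in pregnancy, 6.79, 6.70, 7.20, 7.94 and 6.57 in QSi5 in pregnancy, 10.91, 8.91 and 8.42 in CBA in lactation, and 11.16, 10.20 and 10.56 in QSi5 in lactation. The groups overlapped at both stages, and CBA pregnancy array 4 was the highest of all 16. Jchain gave 2.53 (SE 1.16, unadjusted p = 0.0448, limma adjusted p = 0.922), and the others were Mzb1 (1.27), Pou2af1 (1.64), Iglv1 (1.13) and Pax5 (0.54). Ighm, the mu heavy chain, had -0.10 (SE 0.24, limma adjusted p = 0.996) on its brightest probe set. Its other 10 probe sets lay between -0.41 and 1.57, none called. Without QSi5 lactation array 2 the median was 0.24 with 4 members at a p under 0.05, and Pou2af1 gave 0.99. Without QSi5 lactation array 3 Pou2af1 gave 2.38 and was called (limma adjusted p = 0.034); that array was at 3.66, within the CBA lactation range of 3.42 to 3.86. T and NK cell markers had a median of 0.48 over 14, with Nkg7 (0.88) and Klrd1 (0.77) at a p under 0.05 (14.3%), and Thy1 had -0.29 (SE 0.74, limma adjusted p = 0.996); without QSi5 lactation array 2 that median was 0.26 and Nkg7 gave 0.58.

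Fat and muscle markers moved with single arrays. Brown adipocyte markers had a median of 1.52 over 10 members, all positive, with 1 at a p under 0.05, Ppargc1a, a mitochondrial coactivator, at 1.54 (SE 0.36, unadjusted p = 0.000618, limma adjusted p = 0.217), which was called without QSi5 pregnancy array 3 (limma adjusted p = 0.0479). The other 4 probe sets of Ppargc1a gave -0.58, -0.24, 0.11 and 0.35, none with a p under 0.05. Ucp1, the uncoupling protein that defines brown fat, lay between 4.07 and 12.47 on the CBA pregnancy arrays and between 3.84 and 6.49 on the QSi5 ones, and gave 2.97 (SE 1.89, limma adjusted p = 0.996). Without CBA pregnancy array 5 the median was 0.82. Adipoq, made by all fat cells, gave 0.40 (SE 1.01, limma adjusted p = 0.996). Skeletal muscle markers had a median of -1.71 over 15, with no member at a p under 0.05; without QSi5 pregnancy array 3 it was -0.55, and without the 5 arrays that stood apart 0.016.

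Immediate early genes, which respond within minutes to handling and signals, had a median of -0.45 over 20, 18 of them negative, with Fos (-0.89) and Dusp1 (-1.09) at a p under 0.05. Without CBA lactation array 1, at 8.44 for Fos against 7.37 and 7.17 on the other CBA lactation arrays, Fos gave -0.50. Jund had -0.51 (SE 0.26, limma adjusted p = 0.962). In the metallothionein, glutathione and stress list, Gpx1, the main cytosolic glutathione peroxidase, had -0.01 (SE 0.24, limma adjusted p = 0.998).

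**Figure D4:**
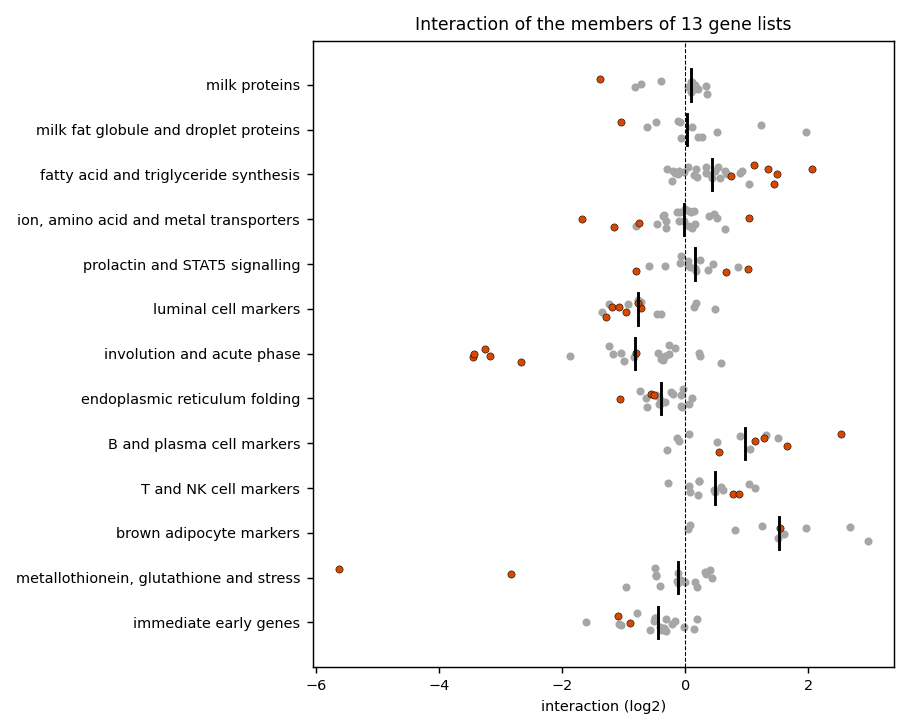
Interaction (log2, horizontal axis) of each measured member of 13 gene lists; orange points had an unadjusted p under 0.05, grey points did not, and the black bar is the list median. The luminal and acute-phase lists sit to the left at medians of -0.78 and -0.82, B and plasma cell and brown adipocyte markers to the right at 0.97 and 1.52, and Mt2 is the single point beyond -5.

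**Figure D5:**
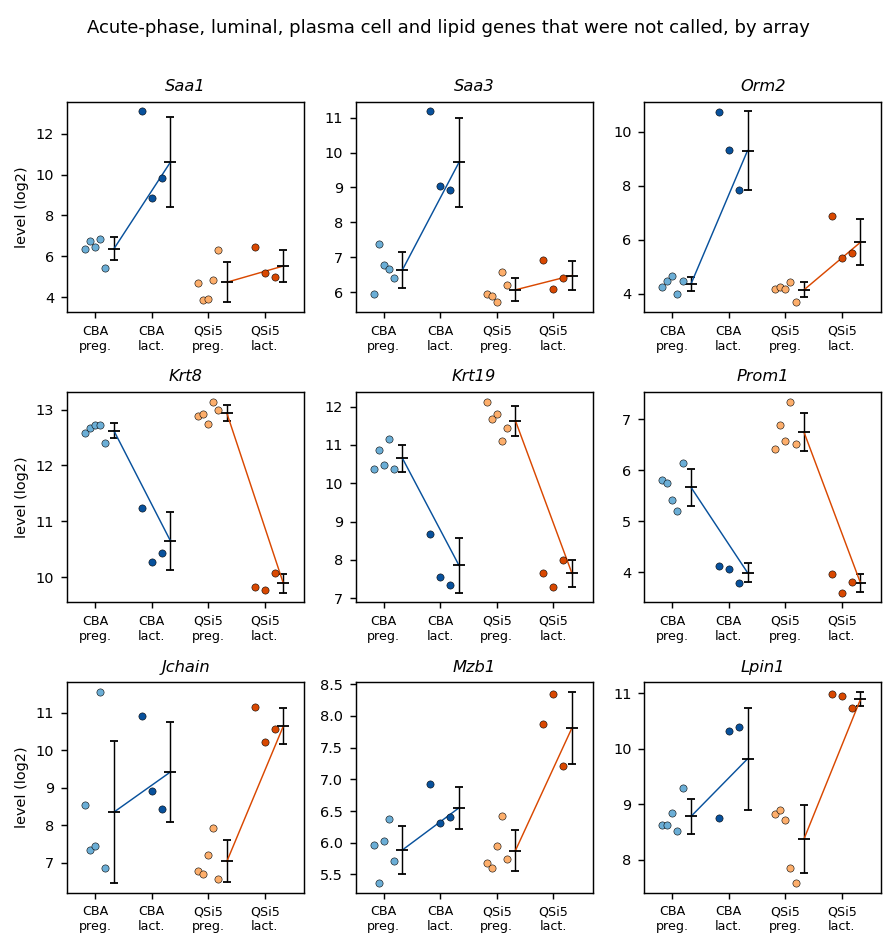
Log2 level on each of the 16 arrays for 9 genes of the acute-phase, luminal, plasma cell and lipid lists that were not called; points are arrays, dashes and bars are the mean and SD of each group (5 arrays each in pregnancy, 3 each in lactation). CBA lactation array 1, the first dark blue point, is at 13.10 in Saa1 and 8.75 in Lpin1, the highest and the lowest of the lactation arrays.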

How the data were processed

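The authors deposited log2 values, 1 per probe set and array, in the series' value table; RMA is named in the submitters' processing notes, with no version, and background correction, summarisation and the annotation used are not given in the sources used here. The deposited values were used as they stood. Over the tested probe sets of the 16 inbred arrays they ranged from 2.40 to 15.1, and array medians were 5.00 to 5.14 in pregnancy and 5.25 to 5.30 in lactation. Array numbers limit the precision, with 5 and 3 arrays a group.

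A 4-group linear model was fitted to 45037 probe sets of 16 arrays with limma 3.58.1 in R 4.3.3 (lmFit, eBayes), and p-values were Benjamini-Hochberg adjusted over all of them; a call is an adjusted p under 0.05. The script was tested on simulated data. Gene symbols came from the platform annotation, updated through RefSeq (GRCm38.p6): 34945 probe sets had 1 symbol, 932 several and 9160 none. Named genes were the 12 highest and 12 lowest called (all, where fewer), up to 4 called and 2 uncalled of each described list, and 14 fixed genes. Lists and members were chosen with earlier results of these data known. Alternatives covered the mean-level filter, variance model, array weights, scaling, arrays entered, a replicate block and each array left out in turn. Of 20 pairs of same-numbered arrays, 2 had deviations from their group means that correlated above 0.1.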

Additional observations from a re-analysis of the deposited data

Results flagged for a closer look

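The stage change differed between the strains by the test of the difference itself in 47 probe sets. For genes with a higher interaction it was 2.98 in Ccdc122, 2.93 in Pclaf, 2.51 in Ceacam10, 2.20 in Pdxdc1, 2.17 in Vcp, 2.14 in Cspg5, 1.93 in Rpl7l1, 1.87 in Prim2, 1.65 in Cyp7b1, 1.58 in Capn9, 1.47 in Glo1, 1.47 in Tra2a, 1.41 in D130037M23Rik, 1.37 in Gstp1, 1.35 in Dnph1 and 1.16 in Stx6. For those with a lower one it was -5.63 in Mt2, -4.82 in Fhad1, -4.07 in Coro2a, -3.29 in Slco2b1, -2.98 in Shisa2, -2.83 in Mt1, -2.34 in Atp8a2, -2.05 in Hspa1b, -2.04 in Cyp2f2, -1.86 in AI506816, -1.77 in Rassf10, -1.61 in Rars, -1.26 in Ccl27a, -1.16 and -1.01 in Prpf19, -1.07 in Cct3 and -0.99 in Ets2. These are values of called probe sets, and 15 of them did not represent their gene. Among the genes of those 15, the brightest probe set had the opposite sign in Vcp (-0.09), Rpl7l1 (-0.85), Prim2 (-0.25), Tra2a (-0.26) and Stx6 (-0.24). In the others it had the same sign.

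Single arrays lay far from the other 4 of their pregnancy group in 17 of 214 combinations of gene and group, by a gap to the nearest array that exceeded Dixon's 95% critical value as a share of the group's range. In independent normal values that limit is passed in about 1 in 20 groups; these genes were partly chosen for their values and share arrays, so the count is not a test. On CBA array 5 these were Fasn at 14.04 and Elovl5 at 11.58, both above the group, and Cldn7 at 9.95 and Cspg5 at 7.34, both below it. On CBA array 4, Iglv1 at 6.68, Nkg7 at 6.45 and Slco2b1 at 7.46 were high. On QSi5 array 4, Kit at 7.43, Slc16a1 at 8.22 and Elf5 at 10.98 were low, and Kcnn4 at 12.59 and Pax5 at 5.68 high. On QSi5 array 5, Hyou1 at 9.49, Slco2b1 at 7.49, Klrd1 at 4.84, Rpl7l1 at 4.33 and the probe set 1431213_a_at at 5.95 were high.

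The 10 intercross arrays of lactation day 9, which entered only the fit with all 26 arrays, had a median above the highest of the 16 inbred arrays in 5 of the called probe sets. The share of all tested probe sets with such a median was not counted, so the 5 cannot be read as a trait of the called ones. The intercross median was 13.58 in 1431213_a_at against at most 9.07 on the inbred arrays, 12.12 in 1435137_s_at against 11.42, 11.95 in 1427932_s_at against 10.07, 10.79 in 1452418_at against 9.22, and 6.99 in Cyp7b1 against 6.68.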

How the results depend on the processing

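Against 47 calls (24 higher, 23 lower), array weights gave 152 (66 and 86), all 26 arrays in the fit 79 (36 and 43), a Gapdh 3' minus 5' covariate 84 (33 and 51), and the mean of all probe sets of a gene 17 (7 and 10) over 18193 genes. A mean level of at least 5 gave 36, the trend and robust model 43, equal array medians 45, quantile normalization 62 and cyclic loess 48. Leaving out each array in turn gave 25 to 84 calls, 15 to 33 higher and 10 to 53 lower. Of the 47 probe sets, 21 were called in every such fit, 9 in every other setting that held them and 6 in all. These counts leave out the fit on gene means. Shisa2 and Pclaf, at mean levels of 4.22 and 4.51, were absent from the fit at a mean level of at least 5. Both are among the 9, and Shisa2 is among the 6. With the replicate number as a block there were 32 calls (18 and 14), 26 of them among the 47. Correlations of same-numbered arrays ran from -0.426 to 0.124, which cannot show whether the numbers pair samples. The cause of these shifts was not tested. The fit with all 26 arrays kept each interaction as it was and changed only the estimate of spread.

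The fit on gene means was read only for called genes whose brightest probe set was called, not for the other called probe sets. Within the settings read, no called probe set changed sign. Values near 0 of uncalled genes did: Atp2b2 was 0.0621 with array weights, 0.47 as the mean of its probe sets, 0.16 without the arrays that stood apart and -0.42 to 0.0715 with each array left out; Csn1s2b was -0.0142 with the Gapdh covariate, -0.15 with array weights and -0.26 to 0.33 with each array left out; Csn2 was -0.0311 with array weights and -0.045 to 0.16; Elf5 was -0.0849 with array weights, -0.019 without the arrays that stood apart and -0.19 to 0.35. Gpx1 was 0.0266 with cyclic loess, 0.0708 without the arrays that stood apart and -0.19 to 0.17; Ighm was 0.0677 with array weights, 0.26 as the mean of its probe sets, 0.16 without the arrays that stood apart and -0.20 to 0.0425. Kcnn4 was 0.0527 with the Gapdh covariate, 0.0786 with array weights, 0.0536 with cyclic loess, 0.060 with quantile normalization, 0.0213 without the arrays that stood apart and -0.46 to 0.33. With each array left out, Adipoq ran from -0.0188 to 1.09, Plin2 from -0.27 to 0.10, Thy1 from -1.01 to 0.24 and Xbp1 from -0.0293 to 0.19. List values without the arrays that stood apart, added after seeing the data, also moved to -0.28 for cell cycle and 0.38 for fibroblast genes.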

Other observations

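On the 10 intercross arrays of lactation day 9, the metallothionein levels lay nearer to those of QSi5 than to those of CBA. Mt2 ran from 6.89 to 8.59 with a median of 7.74, where QSi5 lactation arrays were at 6.10 to 7.56 and CBA ones at 9.59 to 12.31, and Mt1 from 10.73 to 11.72. Fhad1 ran from 5.09 to 10.59, which covers most of the distance between the strains, and Slco2b1 from 6.29 to 9.76. Cyp2f2 ran from 5.48 to 9.61 and reached above every inbred array.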
